A study of Mus musculus with 2 samples.

Results

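Txnip, 4 other alpha-arrestin genes, the glucose-sensing transcription factor genes Mlxip and Mlx, and the thioredoxin genes Txn1 and Txn2 were examined in MOS-J cells carrying human DKK1 and in MOS-J cells carrying a control vector. These 9 genes were taken by symbol from the 18193 genes that have a probe set with exactly 1 gene symbol, and each of the 9 has at least 1 such probe set, 17 in all among 45101 on the array. The group was selected on the signals of these same arrays, being assembled around the Txnip difference with its relatives and partners added by name. MOS-J is a mouse osteosarcoma line. The tested cells received a lentivirus with human DKK1, which encodes a secreted inhibitor of Wnt signalling, and the cells they were set against received a control lentivirus. The treatment protocol also describes a plasmid route, drug-resistant clones and a red fluorescent mitochondrial label with cell sorting, but not which of these apply to the profiled cells, nor whether either line came from 1 clone. Each group is 1 array of total RNA, so no value has a replicate error, no test was possible, and batch, clone and vector cannot be told apart.

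Txnip, the thioredoxin-interacting protein, belongs to the alpha-arrestins, adaptor proteins that bind membrane proteins and bring in ubiquitin ligases of the NEDD4 family for their internalisation. It holds back glucose uptake by acting on the transporter encoded by Slc2a1, and it binds reduced thioredoxin. Its transcription is known to follow glucose supply through MondoA, the protein of Mlxip, which needs Mlx as its partner and binds a pair of E-box-like sites called the carbohydrate response element. Txnip and Arrdc4 are the best-known targets of this pair.

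Promoter windows were available for all 9 genes in RefSeq sequence of build GRCm38.p6, from 250 bases before to 50 bases after each annotated start, 11 windows in all because Arrdc3 has 3. The letters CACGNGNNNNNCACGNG, a tandem pair of E-box-like sites of the carbohydrate response element, were searched on both strands. They occurred in the Txnip window alone of the 11, and in 0.0487% of all 32851 windows. The match lay 85 to 69 bases before the Txnip start. The palindromic E-box CACGTG, which can overlap the tandem pair, was found in the Arrdc4 window, 193 to 188 bases before the start, and in the Mlx window, 40 to 35 bases before it, against 7.15% of all windows. These 3 windows are shown 5′ to 3′ on the coding strand, with the matches in capitals. The Txnip window holds the tandem pair, and the Arrdc4 and Mlx windows hold only the single E-box. The Txnip window is chr3:96557707-96558006 on the plus strand, the Arrdc4 window chr7:68749189-68749488 on the minus strand and the Mlx window chr11:101087040-101087339 on the plus strand.
Txnip: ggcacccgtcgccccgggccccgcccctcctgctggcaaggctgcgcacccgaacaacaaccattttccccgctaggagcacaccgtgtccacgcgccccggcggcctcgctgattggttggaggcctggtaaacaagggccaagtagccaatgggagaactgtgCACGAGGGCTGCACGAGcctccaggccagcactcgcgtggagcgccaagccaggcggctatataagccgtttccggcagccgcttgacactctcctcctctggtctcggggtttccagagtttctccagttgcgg
Arrdc4: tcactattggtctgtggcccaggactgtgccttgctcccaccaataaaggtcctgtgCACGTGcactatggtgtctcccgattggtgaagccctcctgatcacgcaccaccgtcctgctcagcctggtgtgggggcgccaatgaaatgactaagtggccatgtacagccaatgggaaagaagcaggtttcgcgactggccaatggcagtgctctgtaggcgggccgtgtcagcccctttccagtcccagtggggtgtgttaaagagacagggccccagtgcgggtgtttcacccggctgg
Mlx: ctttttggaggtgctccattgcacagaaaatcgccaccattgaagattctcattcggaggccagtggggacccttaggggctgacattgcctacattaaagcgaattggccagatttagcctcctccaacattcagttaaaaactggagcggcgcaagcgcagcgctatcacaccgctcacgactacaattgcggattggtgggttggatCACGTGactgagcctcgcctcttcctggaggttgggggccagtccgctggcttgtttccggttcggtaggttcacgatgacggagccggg
The Txnip window also held the forkhead core GTAAACA, searched on both strands and present in 3.65% of all windows, 121 to 115 bases before the start, and no other of the 11 windows did. It further held CCAAT on each strand, a motif found in 37.4% of all windows on either strand, and GNACANNNTGTNC, a loose glucocorticoid receptor motif found in 0.475% of them. The Arrdc4 window held CCAAT at 6 places, counting both strands. A match describes the letters of a window and is not a measured binding site.

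Signals are MAS5 summaries on a linear scale, with both arrays scaled to the same trimmed mean of 500. A probe set is called measured here if its 2 signals average at least 71.3, which is the median average on the array, and dim otherwise. Differences are log2(signal + 16.6) on the DKK1 array minus the same on the control array, and a gene has the mean of its measured probe sets. A gene was called at a difference of at least 1 in size, which is 2-fold, with all its measured probe sets on 1 side. The median difference of all 11058 measured genes was 0.10. Spike-in controls added at hybridisation had a median log2 ratio of -0.37, and poly-A controls carried through labelling one of 0.64, so a shift common to all genes is not fixed by these arrays.

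Txnip was nearly dark in control cells and bright in DKK1 cells. Probe set 1415996_at had a signal of 3618 on the DKK1 array and 14.9 on the control array. The control signal was under 71.3, so the fold is only bounded, at 50.8 or more. The other Txnip probe set, 1415997_at, had 121 on the DKK1 array and 6.48 on the control array, at least 1.69-fold higher. Both probe sets were thus higher in DKK1 cells, with the control signal dim in each. Probe set 1415997_at lay just under the measurement filter, with a mean of 63.5, while the lowest measured mean among the 9 genes was 91.7, for Arrdc2. The Txnip log2 difference of 6.85 therefore rests on 1415996_at and depends on the pseudocount. With both probe sets averaged it was 4.71. Its rank among the genes is not fixed, since it ran between 3 and 15 over the settings tried. Txnip was chosen for this contrast, so the difference is a description. Relative to the median of all genes it was 6.75 as deposited and between 6.67 and 6.89 under the 4 other scalings.

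The 5 genes with log2 differences nearest to that of Txnip over these 2 arrays were Aldh1a1, Abi3bp, Omd, Igf2 and Colec12. Like Txnip, each of the 5 was dim on the control array, with signals between 0.81 and 44.8. Their closeness to Txnip therefore depends on the pseudocount, though less for Omd, whose control signal of 44.8 was the highest of the 5. Neither an order nor a likeness among these genes was measured.

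**Figure D1:**
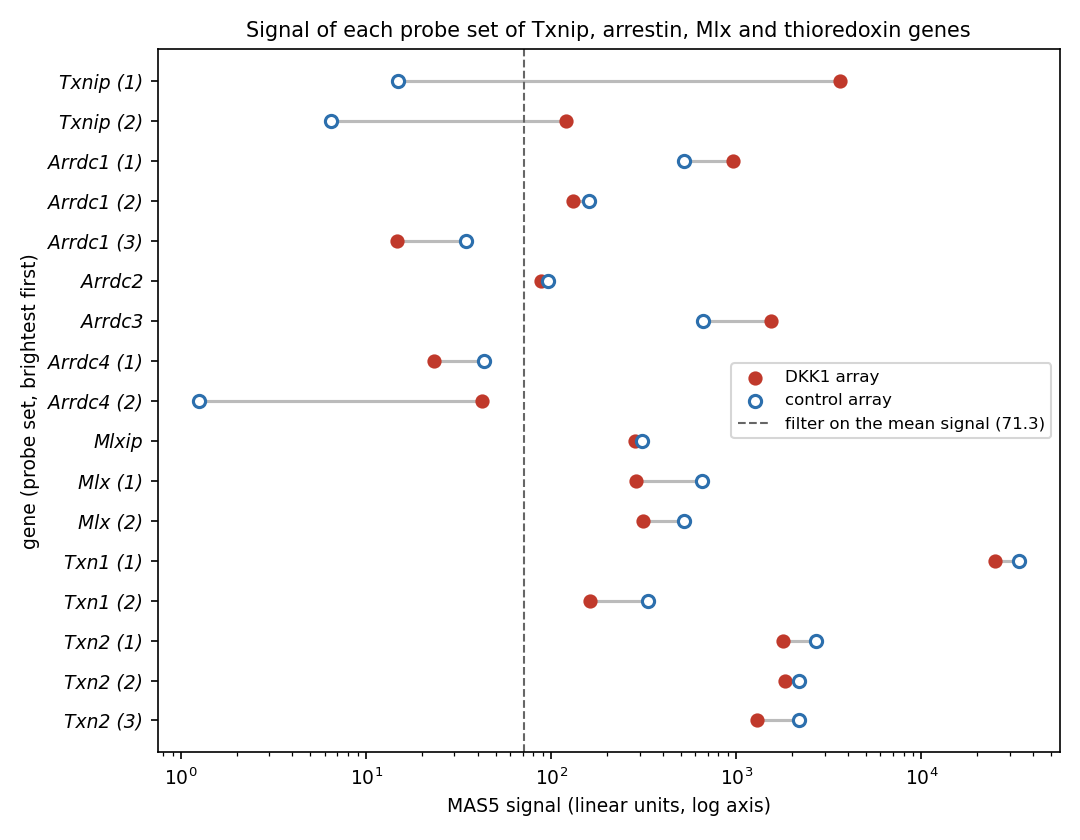
Signal of each of the 17 probe sets on the DKK1 array (filled red) and the control array (open blue), on a log axis in linear MAS5 units. The dashed line is the filter of 71.3, applied to the mean of the 2 signals. Txnip has 3618 on the DKK1 array and 14.9 on the control array for its brighter probe set, and both Arrdc4 probe sets lie left of the line on both arrays.

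Among the other alpha-arrestins, Arrdc3 was higher in DKK1 cells, Arrdc1 and Arrdc2 were not called, and Arrdc4 was below the filter. Arrdc3, which recruits NEDD4-family ligases to membrane receptors, had a signal of 1545 on the DKK1 array and 657 on the control array. This is a ratio of 2.35 and a log2 difference of 1.21 on its 1 probe set. That call ended with median scaling (0.89) and with poly-A scaling (0.58). Arrdc1, which takes part in the release of vesicles from the plasma membrane, had 3 probe sets that disagreed. Probe set 1424578_at had 956 on the DKK1 array and 519 on the control array. Probe set 1444508_s_at, of a class whose probes can match more than 1 transcript, had 131 on the DKK1 array and 160 on the control array. The dim 1458613_at had 14.7 on the DKK1 array and 34.7 on the control array. The mean over the 2 measured probe sets was 0.30 with an SD of 0.79 between them, so no direction can be given for Arrdc1. Arrdc2 had 87.7 on the DKK1 array and 95.6 on the control array, a difference of -0.11.

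Arrdc4, the alpha-arrestin that shares glucose control with Txnip, was not measurable here. Probe set 1424759_at had 23.3 on the DKK1 array and 43.1 on the control array. Probe set 1426818_at had 42.5 on the DKK1 array and 1.24 on the control array. The 2 probe sets went opposite ways and all 4 signals were under 71.3, so no fold is given. Whether Arrdc4 changed along with Txnip was therefore not measured.

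Neither gene of the factor pair known to control Txnip was called higher under any setting. Mlxip had a signal of 284 on the DKK1 array and 308 on the control array, a difference of -0.11. Mlx was lower on both its probe sets. Probe set 1425930_a_at had 288 on the DKK1 array and 656 on the control array. Probe set 1418437_a_at had 314 on the DKK1 array and 520 on the control array. The mean difference was -0.92 with an SD of 0.31 between probe sets, just short of the 2-fold rule. Mlx passed that rule under 5 of the 10 alternatives, at -1.07 to -1.53, and moved to -0.56 with hybridisation control scaling. Relative to the median of all genes Mlx stood at -1.02.

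The thioredoxins, small proteins that reduce disulfides and that Txnip binds, were lower in DKK1 cells on all 5 of their probe sets as deposited, and on 4 of the 5 with hybridisation control scaling, with deposited ratios of control to DKK1 signal between 1.19 and 2.05. Txn1, the cytosolic form, had 25032 on the DKK1 array and 33540 on the control array for 1416119_at. Its second probe set, 1456734_at, had 162 on the DKK1 array and 331 on the control array. The Txn1 mean was -0.69 with an SD of 0.38 between probe sets. Txn2, the mitochondrial form, had 1794 on the DKK1 array and 2677 on the control array for 1421557_x_at, a class whose probes can cross-hybridise. It had 1824 on the DKK1 array and 2173 on the control array for 1455640_a_at, and 1291 on the DKK1 array and 2174 on the control array for 1452782_a_at. The 3 Txn2 probe sets agreed in direction, with a mean of -0.52 and an SD of 0.25. Neither gene was called as deposited. With poly-A scaling both were, at -1.31 for Txn1 and -1.16 for Txn2, and Txn1 was also called with median scaling, at -1.01. With hybridisation control scaling they stood at -0.33 for Txn1 and -0.15 for Txn2, where the Txn2 probe set 1455640_a_at turned to 0.12.

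Of the 8 genes of this group that were measured, 2 were called higher (Txnip and Arrdc3) and 0 lower, while 6 were not called. Over all measured genes 11.7% were called higher and 6.91% lower. The median difference of the 8 was -0.11, against 0.10 over all genes. Since the group was assembled with this contrast known, nothing is read from these shares. As deposited, 3 of the 13 measured probe sets were higher in DKK1 cells and 10 lower. With hybridisation control scaling Arrdc2 (0.21), Mlxip (0.24) and the Txn2 probe set 1455640_a_at (0.12) turned higher. The split over all measured probe sets was not computed, so nothing is read from this one either.

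**Figure D2:**
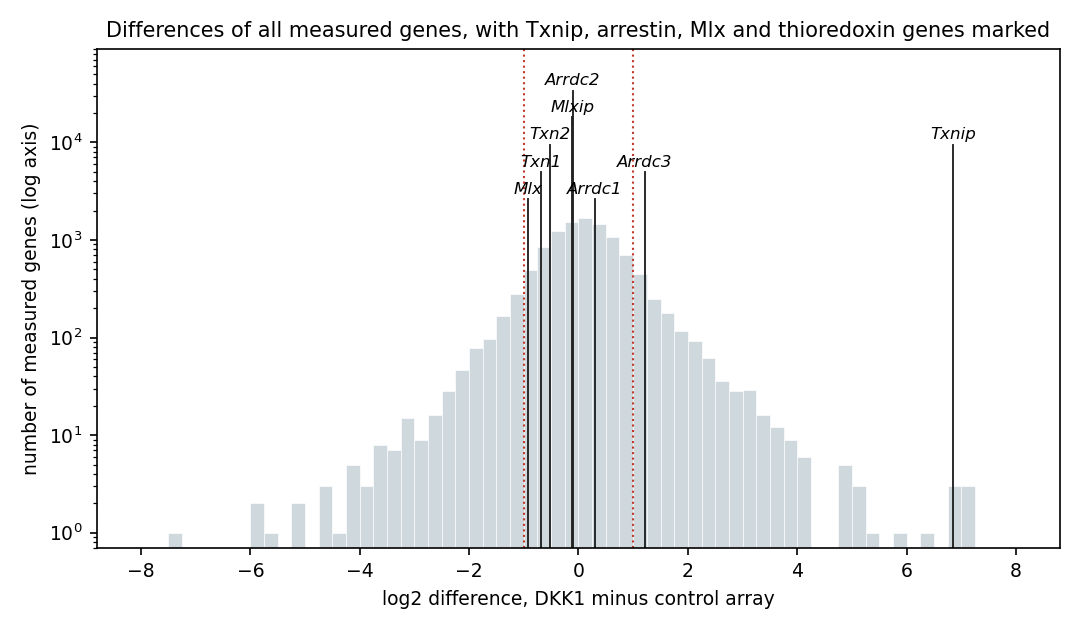
Histogram of the log2 differences (DKK1 minus control array) of 11058 measured genes, with a log count axis and dotted lines at the 2-fold rule. Vertical lines mark the 8 measured genes of the group. Txnip lies at 6.85, far to the right, Arrdc3 at 1.21, and the other 6 between -0.92 and 0.30.

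**Figure D3:**
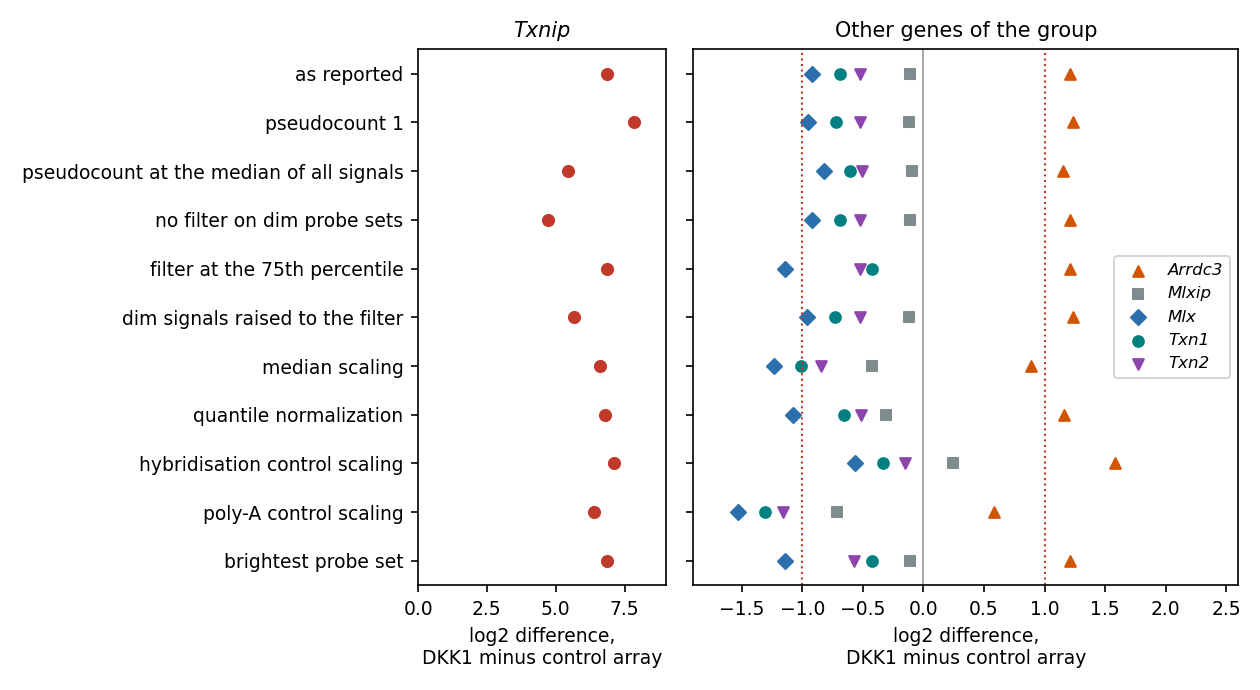
Log2 difference (DKK1 minus control array) of Txnip (left panel) and of Arrdc3, Mlxip, Mlx, Txn1 and Txn2 (right panel) as reported and under 10 alternatives, each on its own row. Txnip stays between 4.71 and 7.83, while Mlx, Txn1, Txn2 and Arrdc3 cross the dotted 2-fold lines under some scalings. Mlxip has no point with the 75th percentile filter.

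Genes around this group were followed in 10 lists of 135 entries. Of the 106 distinct genes measured, 17 were higher and 13 lower in DKK1 cells, or 16.0% and 12.3%, against 11.7% and 6.91% of all measured genes, with a median of -0.01 against 0.10. The split followed the scaling, with 5 higher and 31 lower on poly-A scaling and 26 higher and 7 lower on hybridisation control scaling. Of the 30 calls, 11 held under all 10 alternatives. The shares and median of all genes apply to each list below.

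Among the NEDD4-family ubiquitin ligases, which dock on alpha-arrestins, 1 of 7 measured genes was higher and 0 were lower, and the list median was 0.09. The 1 called gene, Itch, encodes the ligase that marks Txnip for degradation. Its brightest probe set, 1415769_at, had 1964 on the DKK1 array and 1942 on the control array, while 1459332_at had 274 on the DKK1 array and 73.7 on the control array. The Itch difference of 1.17 thus came from its dimmer probe sets, and 6 alternatives ended the call, 0.02 with the brightest probe set alone. Nedd4 fell short of the rule at 0.97 (SD 0.15 between 3 probe sets). Its brightest probe set had 10452 on the DKK1 array and 4883 on the control array. Nedd4 was called higher under 3 of the 10 alternatives and ran from 0.34 to 1.34 over them. Of 7 other arrestin-fold genes, 1 was higher and 1 lower. Arrb1, a beta-arrestin that turns off G protein-coupled receptors, had 434 on the DKK1 array and 163 on the control array (1.33, and 0.73 with poly-A scaling). Vps26a, an arrestin-fold subunit of the retromer sorting complex, had 1752 on the DKK1 array and 3927 on the control array (-1.16, and -0.79 with hybridisation control scaling).

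In the thioredoxin system 1 of 18 measured genes was higher and 1 lower, with a median of -0.06. Srxn1, sulfiredoxin, which repairs over-oxidised peroxiredoxins, was lower on all 4 probe sets (-1.70, SD 0.11), with 1276 on the DKK1 array and 4497 on the control array for the brightest. Msrb2, a mitochondrial methionine sulfoxide reductase, was higher (1.08), and 4 alternatives ended that call, at 0.50 to 0.84. Thioredoxin reductase 1, which recharges Txn1, was not called because its measured probe sets differed. For Txnrd1 the brightest probe set had 1864 on the DKK1 array and 11598 on the control array, while the other had 106 on each array. The Txnrd1 mean was -1.31, and it was called lower under 5 of the 10 alternatives, at -2.63 with the brightest probe set alone. Txnrd3 was just short of the rule (-0.98, SD 0.07 between 3 probe sets) and was called lower under 7 of the 10 alternatives. Txnrd2 leaned higher and was not called (0.49, SD 0.42 between 4 probe sets). The glutaredoxins, a parallel disulfide-reducing system that draws on glutathione, gave 1 higher and 1 lower of 4 measured genes. Glrx was higher on both probe sets (2.47, SD 0.01), with 4173 on the DKK1 array and 746 on the control array for the brighter. Glutathione reductase, Gsr, was lower (-1.33, SD 0.01), with 750 on the DKK1 array and 1922 on the control array, and hybridisation control scaling ended its call at -0.97.

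Mlx and Max are the shared partners of a network of transcription factors that includes Myc and the Mxd repressors. The list for this network leaves out Mlx and Mlxip, which are given above. It had 3 of 8 measured genes higher and 1 lower, and a list median of 0.37. The higher ones were all Mxd repressor genes. Mxd4 (1.74, SD 1.07 between 4 probe sets) had 1994 on the DKK1 array and 504 on the control array for its brightest probe set. Mxd3 (1.16) and Mxd1 (1.03) lay nearer the rule. With median, quantile or poly-A scaling all 3 calls ended, since 1 Mxd4 probe set (0.18 as deposited) turned lower, although the Mxd4 mean stayed at 1.45, 1.54 and 1.17, and the others shrank to between 0.46 and 0.90. Myc was lower (-1.53), with 1235 on the DKK1 array and 3597 on the control array. Max was just short of the rule (-0.95), with 191 on the DKK1 array and 385 on the control array. It was called lower under 5 of the 9 alternatives in which it was measured. Mlxipl, the ChREBP gene that can replace Mlxip, had 11.4 on the DKK1 array and 2.40 on the control array, both far under the filter.

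The glucose transporter gene Slc2a1 and the hexokinase gene Hk2 were lower in DKK1 cells, and few other glucose-handling genes were called. Among the glucose transporters 2 of 7 measured genes were lower and 0 higher, and the list median was -0.18. Slc2a1, whose product Txnip restrains, was lower on all 3 probe sets (-1.86, SD 0.26). The brightest had 2277 on the DKK1 array and 9762 on the control array, and the call held under all 10 alternatives. Slc2a10 was lower at -1.04 from a DKK1 signal under the filter, and 3 alternatives ended that call, at -0.61 to -0.75. Among 15 genes of glucose phosphorylation and sensing, 1 was higher and 1 lower, with a median of -0.05. The hexokinase gene Hk2, which makes the sugar phosphate that MondoA senses, had 1124 on the DKK1 array and 5636 on the control array (-2.31). Hk1, another hexokinase gene, was not called (-0.05), with 1432 on the DKK1 array and 1485 on the control array for its measured probe set. Prkag1, a subunit of the energy sensor AMPK, was higher (1.12, SD 0.58 between 2 probe sets), and median scaling, poly-A scaling and the brightest probe set alone ended its call, at 0.80, 0.50 and 0.71. Among genes reported elsewhere as targets of MondoA or ChREBP 2 of 12 measured were lower and 0 higher, and the list median was -0.03. These were Hk2 and Rgs16, a regulator of G protein signalling, which had 85.9 on the DKK1 array and 400 on the control array for its measured probe set. The Hk2 call held under all 10 alternatives. Without the filter the Rgs16 call ended, at -1.33, since a dim probe set went the other way.

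Txnip is also known as a target of FOXO factors and of glucocorticoids. Among the FOXO targets 6 of 16 measured genes were higher in DKK1 cells and 0 lower, and the list median was 0.32. The 10 not called reached down to -0.86. Over all genes 11.7% were higher and 6.91% lower. This list, like the others, was written with earlier results of these data known, so nothing is read from its share. Pik3ip1, an inhibitor of PI3 kinase, had 857 on the DKK1 array and 171 on the control array for the brighter of its probe sets (2.25, SD 0.03). Sesn1, a stress-induced inhibitor of mTORC1 signalling, was higher on all 3 measured probe sets (1.78, SD 0.05), with 3482 on the DKK1 array and 979 on the control array for the brightest. The other 4 were Ccng2 (1.40), a cyclin gene of quiescent cells, Fbxo32 (1.24), a ubiquitin ligase gene of muscle wasting, Sesn3 (1.08) and Cdkn1b (1.01), which encodes the cell cycle inhibitor p27. The calls of Pik3ip1 and Sesn1 held under all 10 alternatives, while with poly-A scaling the other 4 lay between 0.37 and 0.82. Of the glucocorticoid-induced genes 3 of 13 measured were higher and 5 lower, and the list median was -0.15. The kinase gene Sgk1 had 12167 on the DKK1 array and 1981 on the control array (2.61), and the phosphatase gene Dusp1 was higher too (1.81). The mTORC1 inhibitor gene Ddit4 had 1566 on the DKK1 array and 7286 on the control array (-2.21), and the metallothionein gene Mt1 was lower (-1.99, SD 1.34 between 2 probe sets). This list therefore went in both directions.

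**Figure D4:**
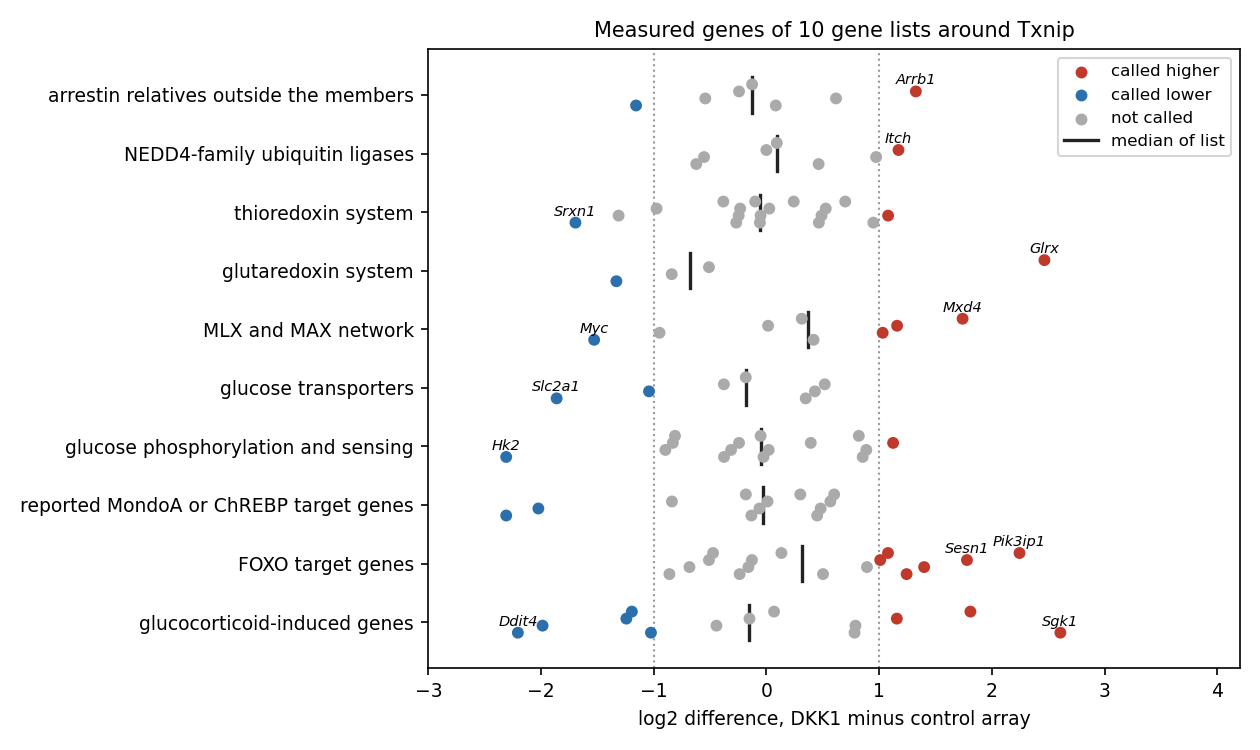
Log2 difference (DKK1 minus control array) of each measured gene in 10 gene lists, 1 row per list, with called genes in red (higher) and blue (lower), the list median as a black bar and dotted lines at the 2-fold rule. Medians run from -0.68 for the glutaredoxin system to 0.37 for the Mlx and Max network, and the FOXO targets have 6 red points and 0 blue.

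As a check of the cell type, 7 of 11 osteoblast markers had a probe set with their symbol alone and 5 were measured. Col1a1 and Col1a2 were bright and were not called as deposited (0.79 and 0.05), and the probe sets of each differed. The brightest Col1a1 probe set had 6263 on the DKK1 array and 2150 on the control array. The other, 1423669_at, was nearly level, with 1699 on the DKK1 array and 1640 on the control array. The brightest Col1a2 probe set had 24640 on the DKK1 array and 31456 on the control array (-0.35). The other Col1a2 probe sets stood at 0.03 and 0.48. Phex was called lower (-3.54), with 1.97 on the DKK1 array and 200 on the control array. The DKK1 signal was under the filter, so the fold is only bounded, at 2.80 or more. The -3.54 depends on the pseudocount, and the call ended without the filter (-1.70). Sp7 and Alpl were measured at low signals, Ibsp and Dmp1 were dim on both arrays, and Runx2, Bglap, Bglap2 and Spp1 were not analysed here. The probe sets of 9 leukocyte markers summed to 1477 on the DKK1 array and 1158 on the control array, with 5 of them measured, 1 higher and 1 lower. Lyz2 was higher (2.29), with 136 on the DKK1 array and 14.5 on the control array, and Laptm5 was lower (-1.10), with 44.2 on the DKK1 array and 113 on the control array. Both calls ended with dim signals raised to the filter, at 0.93 and -0.67. Cd14 had 521 on the DKK1 array and 370 on the control array and was not called. Cd68 (0.48) and Csf1r (0.45) were not called either. Ptprc, Adgre1, Itgam and Tyrobp were dim on both arrays. The part of such markers in the results above was not tested. The probe sets of 8 endothelial and epithelial markers summed to 810 on the DKK1 array and 588 on the control array. Of these markers 3 were measured, at 0.21 to 0.82, and not called. In RNA from a whole culture, more cells with a transcript and more transcript per cell cannot be told apart.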

How the data were processed

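RNA of MOS-J cells carrying human DKK1 and of MOS-J cells with a control vector was hybridised to 1 Affymetrix mouse array each. The deposited values are intensity values, 1 linear signal per probe set, made with MAS5 per the submitters' processing notes; version, settings and detection calls: not given in the sources used here. Per the labels' protocols, labelling used a 3' in vitro transcription kit. Of 45101 probe sets, 34945 outside the controls carry 1 symbol, and 34741 of these matched a RefSeq gene ID. From the signals, log2 differences with a pseudocount of 16.6 (the 25th percentile of all signals) were computed with Python 3.11.15 and pandas 2.3.3. The filter and calling rule are given above. The calling code was tested on simulated data with large changes in bright genes, which does not cover calls near the 2-fold rule or the filter. With 1 array per group there is no test, and precision is limited by the number of arrays. Each group's label gave its array. The named genes are the 9 members, up to 4 called genes per list with the largest differences and the 5 genes nearest to Txnip. In lists of 9 or fewer any measured gene could be named. Hk1, Txnrd1, Txnrd2, Txnrd3, Max, Mlxipl, Sesn3, Cdkn1b, the marker genes and those of the closing observations were chosen after their values were seen. Members and lists were chosen with earlier results of these data known. The 10 alternatives changed the pseudocount, filter, dim signals, scaling or probe set summary.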

Additional observations from a re-analysis of the deposited data

How the results depend on the processing

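No paired analysis was possible because each group has 1 array. The Txnip difference kept its direction and its call under all 10 alternatives, between 4.71 and 7.83. The 4 other scalings moved the median of all genes to between -0.52 and 0.46, against 0.10 as deposited, and with it the calls near the 2-fold rule. Median scaling gave 1 gene of the group higher and 2 lower, 746 of all genes higher and 1432 lower, and 7 list genes higher and 23 lower. Hybridisation control scaling gave 2389 of all genes higher and 381 lower, and 26 list genes higher and 7 lower. Poly-A control scaling gave 1 gene of the group higher and 3 lower, 472 of all genes higher and 2663 lower, and 5 list genes higher and 31 lower. As deposited these counts were 2 and 0, 1293 and 764, and 17 and 13. Higher genes made up 62.9% of all calls as deposited, 34.3% with median scaling, 49.8% with quantile normalization, 86.2% with hybridisation controls and 15.1% with poly-A controls. Quantile normalization and the brightest probe set alone each called 1 gene of the group lower, as did the 75th percentile filter, which also left 711 of all genes higher because it tests 7097 genes. The pseudocount at the median of all signals gave 10 list genes higher. Of 119 measured list and marker genes, 67 kept their call or lack of one under every alternative in which they were measured, and 0 called genes changed sign. Some of the 119 were not measured under all 10 alternatives. Arrdc2 and Mlxip, at -0.11 each, had 0.21 and 0.24 with hybridisation control scaling. Dim signals limit Txnip in control cells and Arrdc4 on both arrays.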

Other observations

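The tandem half-site letters found in the Txnip window occurred in 16 windows of 15 genes, a list set by sequence and not by signal. Besides Txnip, 8 of these genes were measured. Of the 8, 1 was called higher in DKK1 cells, 0 were lower and 7 were not called, a share close to the 11.7% called higher among all genes, with a median of -0.23 and a range of -0.92 to 1.21. The 1 called gene was Man2b2, a lysosomal mannosidase gene, at 1.21. Fnip1, which encodes a partner of folliculin and AMPK, stood at -0.73, Fem1b at -0.21 and Nfkb2, a subunit gene of NF-kB, at 0.32. These genes were looked up after their motif matches were known.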
